A study of Mus musculus with 9 samples.

Results

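The genes described here serve protein folding and its control in the endoplasmic reticulum (ER). They are 37 named genes, taken by symbol from a fixed list and matched by gene ID to the 55416 genes counted in each library. They comprise 5 chaperones, 10 enzymes of disulfide bonds and proline turns, 5 co-chaperones or partners, 2 secreted or luminal stress proteins, 10 genes of ER-associated degradation (ERAD) and 5 sensors and transcription factors. The rule that chose them used names and no measured value, but the list was drawn up with earlier results of these data known. The filter on low counts kept 36, and Derl3 did not pass it.

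RNA was sequenced from 4T1, an established breast cancer cell line from BALB/c mice. The 3 groups had 3 libraries each. The PBS group was cultured in DMEM medium and is called untreated in the labels. The MRC group received MRC nanoparticles for 12 h, and the MRC+L group received MRC nanoparticles for 12 h and a 660 nm laser for 3 min. The labels give the irradiance as 180 per square centimetre, in mW in one place and mV in another, and they do not spell out MRC. There was no group with light and without nanoparticles, so the light was tested only on cells that also had MRC. All groups are the same cell line, and the labels do not say that libraries of a group came from separate cultures. The p-values therefore reflect no more than how far these libraries spread, and that spread may be technical.

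Secreted and membrane proteins fold in the ER with the help of the HSP70 chaperone BiP (Hspa5), lectin chaperones and enzymes that form disulfide bonds. When unfolded proteins build up there, the sensors ATF6, IRE1 (Ern1) and PERK (Eif2ak3) start the unfolded protein response, which raises transcription of chaperone and ERAD genes. ERAD recognises proteins that fail to fold, moves them back to the cytosol through a membrane complex and marks them for the proteasome. Many genes of this response carry the ER stress element (ERSE) in their promoters, a CCAAT box followed at a set distance by CCACG, to which ATF6 and XBP1 bind with the factor NF-Y.

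Promoter sequences from RefSeq (mouse build GRCm38.p6, 250 bases before to 50 bases after the gene's start) matched 33 of the 37 genes by symbol, and Hyou1, Manf, Derl1 and Atf6 had no entry. The following 5 belong to the genes with the smallest adjusted p with MRC, as given below, among members whose promoter holds ERSE or ERSE-II. They carry the element at different distances from the start. Each runs 5′ to 3′ on the gene's strand up to the base before the start, all genes lie on the plus strand, and capitals mark the letters of ERSE (CCAAT, any 9 bases, CCACG) or ERSE-II (ATTGG, any 1 base, CCACG), on either strand. The stretches are chr2:34771985-34772089 for Hspa5, chr8:94386337-94386428 for Herpud1, chr13:12565642-12565882 for Ero1lb, chr19:6046492-6046575 for Syvn1 and chr14:118937787-118937931 for Dnajc3.
Hspa5: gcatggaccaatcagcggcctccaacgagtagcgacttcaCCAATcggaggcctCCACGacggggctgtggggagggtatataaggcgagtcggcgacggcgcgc
Herpud1: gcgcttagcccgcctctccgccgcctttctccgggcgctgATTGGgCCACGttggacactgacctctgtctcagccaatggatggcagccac
Ero1lb: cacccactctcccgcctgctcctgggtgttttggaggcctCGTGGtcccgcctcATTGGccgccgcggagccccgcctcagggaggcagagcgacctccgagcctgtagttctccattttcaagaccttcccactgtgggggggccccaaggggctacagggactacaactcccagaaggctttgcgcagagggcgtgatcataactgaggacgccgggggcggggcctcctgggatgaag
Syvn1: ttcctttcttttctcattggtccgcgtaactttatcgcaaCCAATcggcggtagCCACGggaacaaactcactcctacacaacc
Dnajc3: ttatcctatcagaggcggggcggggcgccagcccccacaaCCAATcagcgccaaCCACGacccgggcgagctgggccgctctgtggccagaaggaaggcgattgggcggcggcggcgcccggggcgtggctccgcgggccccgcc
Hspa5, Syvn1 and Dnajc3 hold ERSE on the gene's strand. Ero1lb holds it on the other strand, so its capitals read as the reverse complement. Herpud1 holds ERSE-II.

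ERSE stood in 10 of the 33 member promoters (30.3%) and in 37 of the promoters of 27025 genes (0.137%). The 10 members were Calr, Canx, Creld2, Derl3, Dnajc3, Ero1lb, Hsp90b1, Hspa5, Pdia6 and Syvn1, and Hsp90b1 held 2 matches. ERSE-II stood in Dnajb11 and Herpud1, 2 of 33 (6.06%), against 12 of all genes (0.0444%). The core of the unfolded protein response element (TGACGTGG) was found in Txndc11 and Txndc5, 2 of 33 (6.06%), against 193 of all genes (0.714%). The core of the amino acid response element (TGATGNAAT) was in 0 of 33 members and in 293 of all genes (1.08%). All were searched on both strands, and no match overlapped another in a member. The counts over all genes include the members, most of which are textbook targets of this response, so their share is a description of the list. A match in these 300 bases is a run of letters and not evidence of binding.

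**Figure D1:**
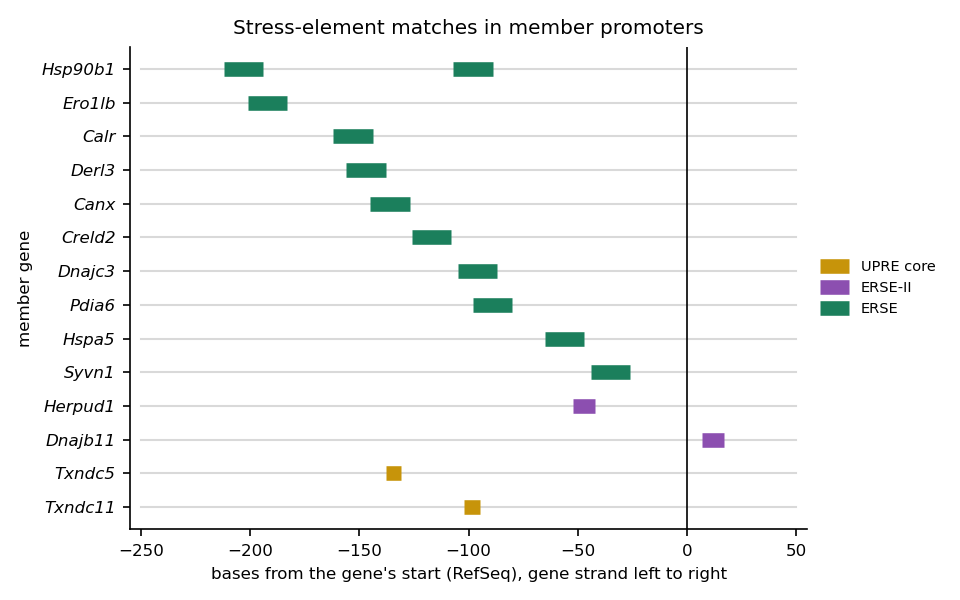
Positions of the matches in the 14 member promoters that hold one, in bases from the RefSeq start of the gene (vertical line at 0), with 1 row per gene and colours for the 3 kinds of element. The ERSE matches lie between -212 and -26 bases from the start, and the ERSE-II match of Dnajb11 lies after it.

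Library totals ran from 15019765 to 20044166 counts, and a count of 0 allowed up to 0.150 to 0.200 CPM (the count scaled to the library total) by library, which covers counting error only. Levels below are CPM with TMM scaling (trimmed mean of M values), and levels of different genes are compared only per kilobase of exon. PBS replicate 2 stood apart from the other libraries. Each gene was taken relative to its own mean over the 9 libraries. On that log2 scale the shortest genes of PBS replicate 2 lay above its longest by 0.92, against -0.25 to 0.08 in the other 8 libraries. The spread between replicates, as a coefficient of variation over genes, was 0.280 in PBS, 0.0807 in MRC and 0.0580 in MRC+L. Among the members, PBS replicate 2 was the highest PBS library for 21 genes (median exon length 3248 bases) and the lowest for 13 (median 6381 bases), and values without it are given where a call changed and for some members whose fold change moved. Summed CPM of 8 mammary epithelial markers, which include the keratins Krt8 and Krt18, was 1074 to 1915 in PBS, 682 to 714 in MRC and 604 to 617 in MRC+L, and Epcam stayed under 1 CPM in all libraries. Most of that difference lay in Krt8 (718, 352 and 311 CPM on average) and Krt18 (577, 201 and 175). The means of Krt7 (108, 88.7 and 73.7) and of Cdh1, low throughout (4.66, 3.20 and 2.55), were also lower in both exposed groups. The means of Cldn3 (26.4, 45.9 and 44.0), Krt14 (0.255, 1.79 and 1.43) and Cldn4 (0.214, 0.711 and 0.824) were higher in both. Of 6 leukocyte markers 5 stayed under 1 CPM in every library, Adgre1 and Cd3e were at 0 in all of them, and the sum was 7.16 to 12.5 in PBS, 16.9 to 22.8 in MRC and 17.9 to 20.3 in MRC+L, nearly all of it from Cd68. Summed CPM in PBS, MRC and MRC+L was 3.35 to 7.42, 4.54 to 5.70 and 4.08 to 5.29 for 4 endothelial markers (3 under 1 CPM throughout), and 42.9 to 77.8, 75.2 to 93.1 and 73.5 to 83.2 for 5 fibroblast markers (Dcn and Lum under 1 CPM throughout). Pdgfra held most of the last sum (44.2, 77.2 and 71.9 CPM on average), while the mean of Pdgfrb was lower in the exposed groups (17.1, 6.14 and 5.49). For 4 plasma cell markers the sum was 126 to 129, 109 to 131 and 103 to 117, and 3 of them were under 1 CPM throughout, with Tnfrsf17 at 0 in all libraries, so the sum came from Sdc1. The part of these shifts in the results on members was not tested. In RNA from whole cultures, fewer cells of a kind and less RNA per cell cannot be told apart.

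The members took a larger part of the RNA in exposed cells. They held 0.921%, 1.04% and 0.896% of all counts in the PBS libraries, 2.48%, 2.22% and 2.34% in the MRC libraries and 2.46%, 2.44% and 2.502% in the MRC+L libraries. Hspa5 alone made up 25.5% to 30.9% of the members' summed CPM in PBS and 52.6% to 55.8% in the 6 exposed libraries. Without Hspa5 the sum was 6547 to 7412 CPM in PBS, 10383 to 11094 in MRC and 11094 to 11609 in MRC+L. The exposed libraries lay above every PBS library in both sums.

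With MRC alone, 30 of the 36 tested members were higher than in PBS and 0 were lower in edgeR's quasi-likelihood test, at a Benjamini-Hochberg adjusted p under 0.05 over 13439 genes. Among all genes tested, 17.8% were called higher and 19.8% lower. DESeq2 also called 0 members lower, and limma voom with sample weights called 1, Dnajc10. At least 2-fold higher and called were 16 members, against 5.91% of all genes. The median log2 fold change was 0.82 over the members and -0.03 over all genes. All 3 MRC libraries lay above all 3 PBS libraries for 31 members and below them for 1, against 24.1% and 24.2% of all genes, and 4 members overlapped.

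With MRC and light, 31 members were higher than in PBS and 1, Os9, was lower, against 21.8% and 24.5% of all genes. The count of called members at least 2-fold higher was 19, against 8.28% of all genes. The median log2 fold change was 1.02 over the members and -0.03 over all genes. The libraries lay apart upward for 30 members and downward for 1, against 28.2% and 28.1% of all genes, and 5 members overlapped. Both comparisons use the same 3 PBS libraries, so they are not separate evidence. The 30 members called higher with MRC were also called higher with MRC and light, and Ero1l was called in the second comparison only.

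**Figure D2:**
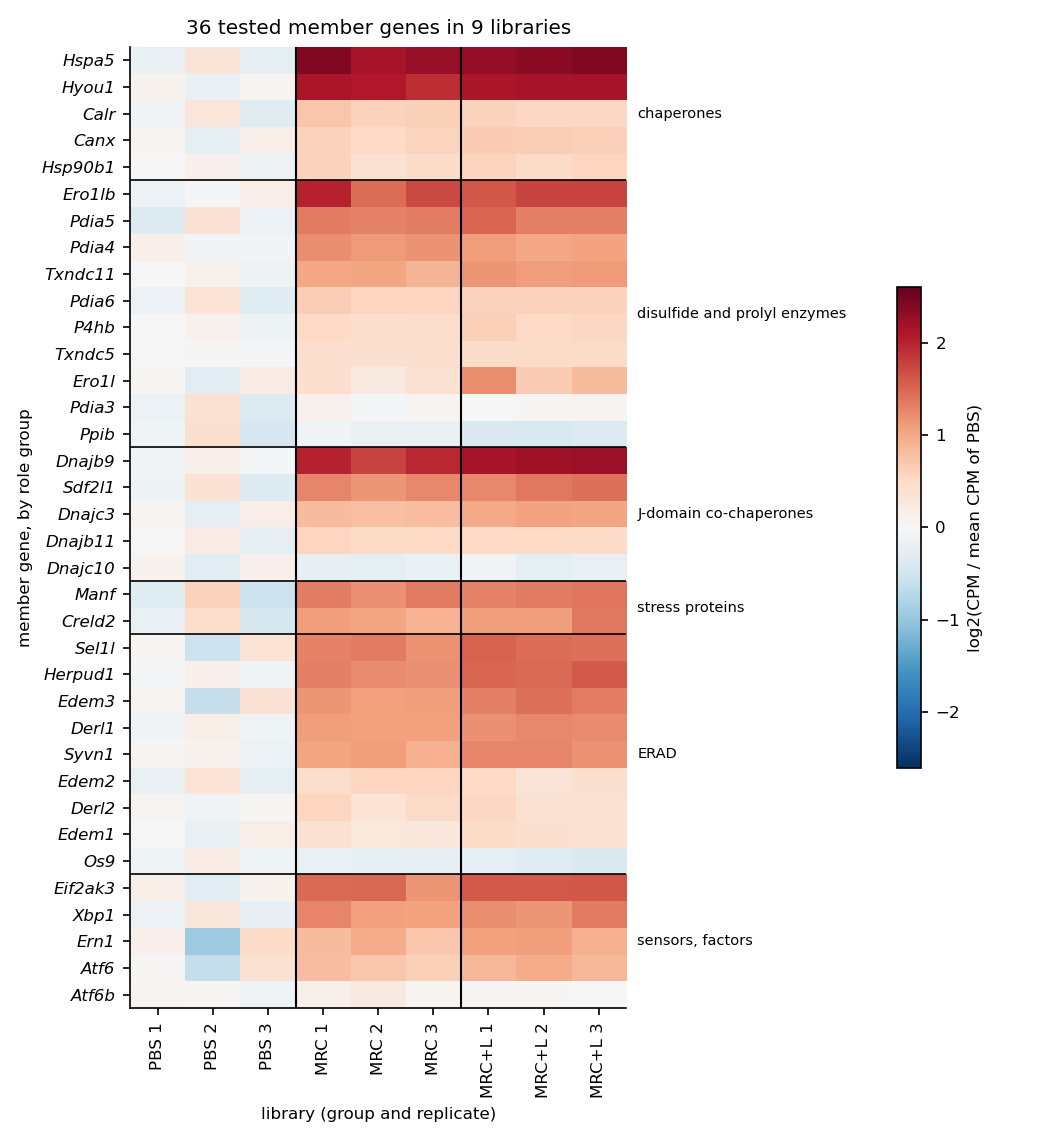
Level of the 36 tested members in each of the 9 libraries, as log2 of CPM over the mean CPM of the 3 PBS libraries, with rows by role group and columns by group and replicate. Red is above the PBS mean and blue below it; most rows are red in all 6 exposed libraries, and Pdia3, Ppib, Dnajc10, Os9 and Atf6b are pale or blue.

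The chaperones were led by Hspa5, which encodes BiP, the HSP70 protein that binds unfolded chains in the ER lumen and holds the stress sensors inactive (GRCm39 chr2:34661982-34667559, ENSMUSG00000026864). Its level was 2356, 3320.4 and 2237 CPM in PBS, 13982, 11650.3 and 12745 in MRC and 12907, 13411 and 13969 in MRC+L. Every exposed library lay above every PBS library, while the MRC and MRC+L libraries overlapped. It was 4.85-fold (log2 2.28 ± 0.17 SE, adjusted p = 9.26e-06) higher with MRC and 5.09-fold (log2 2.35 ± 0.17 SE, adjusted p = 5.15e-06) higher with MRC and light. Without PBS replicate 2, its highest PBS library, the log2 fold changes were 2.47 and 2.55.

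Per kilobase of exon Hspa5 was already the most abundant member in PBS, at 624 ± 140.5 CPM per kb (SD, n = 3). Pdia3, P4hb, Calr and Hsp90b1 followed it there at 232 ± 64.98, 223 ± 17.96, 221 ± 49.5 and 211 ± 19.1, within each other's spread. With MRC, Hspa5 stood at 3025 ± 276 CPM per kb and Calr, the next, at 347 ± 15.8. With MRC and light the values were 3175 ± 126 for Hspa5 and 328 ± 13.04 for P4hb, which then lay within its spread of Calr at 325 ± 8.17. The distance between Hspa5 and the rest of the list was thus wider in exposed cells. At the other end, Eif2ak3 (2.67 ± 0.418) and Ero1lb (3.03 ± 0.359) were the lowest tested members in PBS.

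Hyou1 encodes a large HSP70-like protein that acts as nucleotide exchange factor of BiP (chr9:44290787-44303666). It was at 157, 131 and 157 CPM in PBS, 643, 632 and 559 in MRC and 649.9, 653 and 660.1 in MRC+L. Exposed and PBS libraries did not overlap, and PBS replicate 2 was here the lowest. The fold change was 4.12-fold (log2 2.04 ± 0.11 SE, adjusted p = 2.63e-06) with MRC and 4.41-fold (log2 2.14 ± 0.11 SE, adjusted p = 1.39e-06) with MRC and light. The 3 other chaperones also rose, but by less than 2-fold. Calr and Canx, the lectin chaperones calreticulin and calnexin that hold glycoproteins during folding, were 1.57-fold and 1.47-fold higher with MRC (adjusted p = 0.00698 and 0.00439) and 1.47-fold and 1.55-fold higher with MRC and light (0.0124 and 0.00178). Hsp90b1, the ER form of HSP90, was 1.41-fold and 1.46-fold higher (0.00551 and 0.00283). All 5 chaperones were called in both comparisons, and the libraries of none overlapped with PBS. Over all genes, 17.8% and 21.8% were called higher, and the libraries lay apart upward for 24.1% and 28.2%. Other genes share 15.7% of the exon bases of Hsp90b1, and the counting did not use strand.

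Of all genes tested, 17.8% rose and 19.8% fell with MRC, and 21.8% and 24.5% with MRC and light. Among the 10 enzymes of disulfide bonds and proline turns, 7 rose with MRC and 8 with MRC and light, and 0 fell in either. Ero1lb, one of the oxidases that pass electrons from disulfide isomerases to oxygen, had the largest change (chr13:12580755-12626285). Its level was 18.02, 19.6 and 22.7 CPM in PBS, 80.4, 55.4 and 66.4 in MRC and 61.96, 67.7 and 68.1 in MRC+L. All exposed libraries lay above PBS, with MRC replicate 1 the highest of all. The gene was 3.35-fold (log2 1.74 ± 0.15 SE, adjusted p = 2.3e-05) higher with MRC and 3.28-fold (log2 1.71 ± 0.15 SE, adjusted p = 1.89e-05) higher with MRC and light.

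Pdia4, a disulfide isomerase that acts with BiP (chr6:47773075-47790364), was at 143, 124 and 125 CPM in PBS, 301, 282 and 293 in MRC and 279, 262 and 269 in MRC+L. The exposed libraries lay above PBS and the 3 MRC+L libraries lay below the 3 MRC libraries. It was 2.23-fold (log2 1.16 ± 0.099 SE, adjusted p = 2.13e-05) and 2.06-fold (log2 1.05 ± 0.098 SE, adjusted p = 2.81e-05) higher than in PBS. Txndc11, a thioredoxin-domain protein of the ER (chr16:10892775-10952514), was at 46.7, 50.1 and 42.1 CPM in PBS, 93.4, 94.6 and 85.1 in MRC and 102, 98.2 and 100.2 in MRC+L. Its MRC+L libraries were the highest, its MRC libraries next and its PBS libraries lowest, with no overlap. The changes were 1.97-fold (log2 0.97 ± 0.10 SE, adjusted p = 6.58e-05) and 2.16-fold (log2 1.11 ± 0.10 SE, adjusted p = 2.19e-05).

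The isomerase Pdia5 went from 14.8 ± 4.01 CPM in PBS to 36.99 ± 0.866 with MRC and 38.4 ± 3.19 with MRC and light (SD, n = 3), 2.51-fold and 2.601-fold higher (adjusted p = 0.000273 and 0.00016). Pdia6, P4hb and Txndc5, isomerases that are abundant in the ER, rose by 1.502-fold, 1.39-fold and 1.34-fold with MRC and by 1.52-fold, 1.47-fold and 1.41-fold with MRC and light. The MRC call of Pdia6 (adjusted p = 0.0151) was lost without MRC replicate 1 (0.0552) and without PBS replicate 1 (0.0637). Other genes share 11.9% of the exon bases of Txndc5.

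Ero1l, the other ER oxidase and a gene also known to respond to low oxygen, differed in pattern and is given after its values were seen. Its level was 426, 341 and 482 CPM in PBS, 562, 487 and 544 in MRC and 963, 654 and 734 in MRC+L. MRC+L replicate 1 was the highest library, and the 3 groups did not overlap. The difference from PBS was 0.35 ± 0.17, adjusted p = 0.129 with MRC, not called, and 0.91 ± 0.17, adjusted p = 0.00182 with MRC and light, on the log2 scale with its SE. Without PBS replicate 3 the MRC difference was 0.47 with adjusted p = 0.0470. Limma voom with sample weights also called Ero1l higher with MRC, by 0.32 (adjusted p = 0.00553).

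Pdia3, the isomerase that works with the lectin chaperones, and Ppib, the proline isomerase cyclophilin B, were not called against PBS. Pdia3 was at 729 ± 204 CPM in PBS, 754 ± 40.3 with MRC and 747 ± 17.7 with MRC and light, and the 95% intervals of its log2 differences from PBS were -0.33 to 0.43 and -0.35 to 0.42. Its libraries overlapped because PBS replicate 2, at 958 CPM, lay above all others. Without that library Pdia3 was higher by 0.29 with MRC and by 0.28 with MRC and light (log2, adjusted p = 0.00698 and 0.00726). Limma voom with sample weights also called Pdia3 higher, by 0.21 and 0.19 (adjusted p = 0.00737 and 0.00668). Ppib was at 215 ± 65.7, 192 ± 6.89 and 166 ± 2.98 CPM, with intervals of -0.56 to 0.24 and -0.78 to 0.03. Without PBS replicate 3 its log2 difference with MRC and light was -0.55 (adjusted p = 0.00863), and without PBS replicate 2 its difference with MRC was 0.10 (0.387). Of the exon bases of Ppib 25.0% also belong to Snx22 on the other strand.

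**Figure D3:**
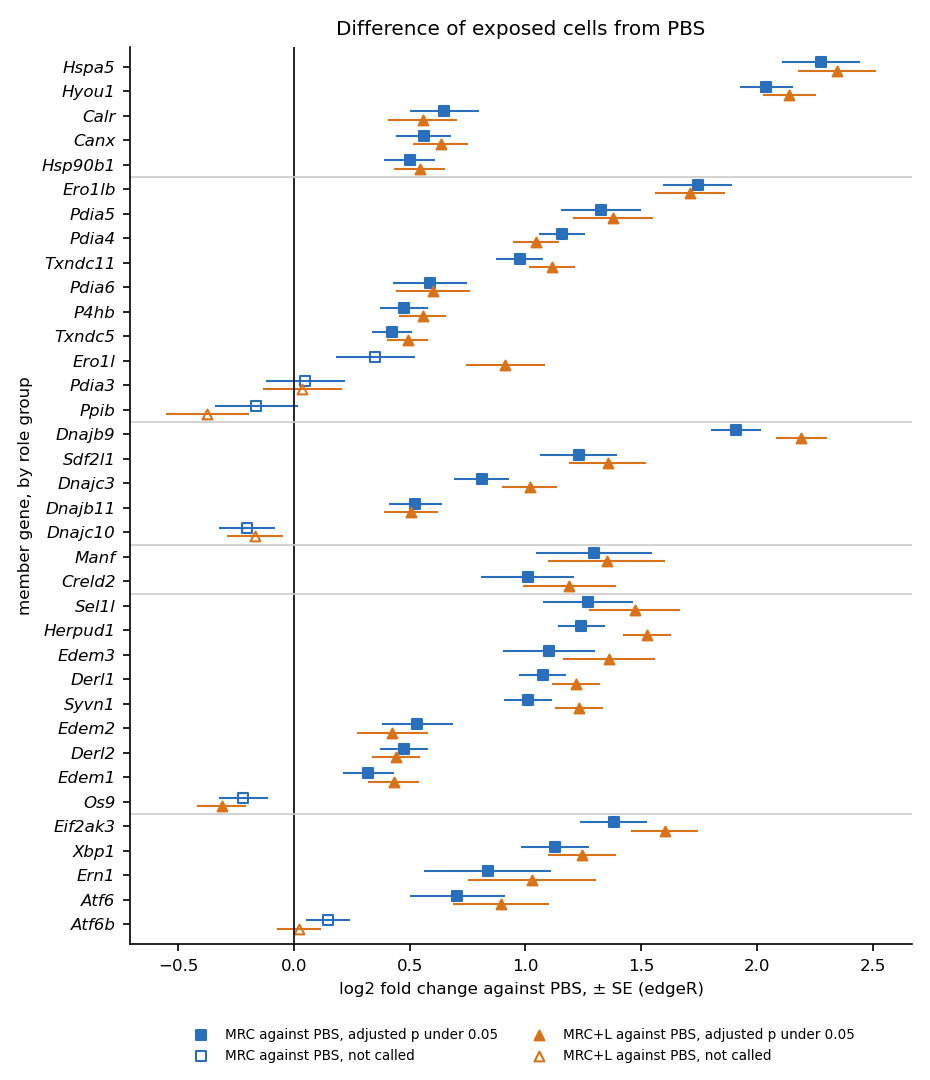
Log2 fold change against PBS ± SE from edgeR for the 36 tested members, with MRC (squares) and with MRC and light (triangles), in role groups divided by lines. Filled points were called; 30 squares and 31 triangles are filled to the right of 0 and 1 triangle, Os9, is filled to the left.

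Of the 5 J-domain co-chaperones and their partner, 4 rose in both comparisons, against 17.8% and 21.8% of all genes. Dnajb9 encodes ERdj4, a J-domain protein that brings BiP to IRE1 and to proteins bound for degradation (chr12:44252342-44257109). It was at 21.7, 24.9 and 22.1 CPM in PBS, 91.3, 77.1 and 89.5 in MRC and 101, 105 and 107 in MRC+L. The 3 groups did not overlap and were in the order PBS, MRC, MRC+L. Its fold change was 3.75-fold (log2 1.91 ± 0.11 SE, adjusted p = 2.66e-06) with MRC and 4.57-fold (log2 2.19 ± 0.11 SE, adjusted p = 1.07e-06) with MRC and light, the largest log2 change after Hspa5 and Hyou1 in the first comparison and after Hspa5 in the second.

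Sdf2l1 encodes a small luminal protein that forms a complex with a J-domain protein (chr16:16948002-16950247). Its level was 16.3, 23.2 and 14.3 CPM in PBS, 43.5, 40.1 and 42.95 in MRC and 42.9, 46.3 and 48.8 in MRC+L. All exposed libraries lay above PBS, whose replicate 2 was the highest of that group. It rose by 2.35-fold (log2 1.23 ± 0.17 SE, adjusted p = 0.000333) and by 2.56-fold (log2 1.36 ± 0.17 SE, adjusted p = 0.000141). Dnajc3 encodes p58IPK, a BiP co-chaperone (chr14:119175388-119219109), and was at 115, 93.2 and 126 CPM in PBS, 198, 193 and 196 in MRC and 221, 230.3 and 227 in MRC+L. Its groups did not overlap and MRC+L was highest. It rose by 1.75-fold (log2 0.81 ± 0.12 SE, adjusted p = 0.000517) and by 2.03-fold (log2 1.02 ± 0.12 SE, adjusted p = 0.000101). Dnajb11, which encodes ERdj3, was 1.44-fold and 1.42-fold higher (adjusted p = 0.00575 and 0.00578). Dnajc10, which encodes the disulfide reductase ERdj5, was at 212 ± 31.7 CPM in PBS, 185 ± 3.26 with MRC and 189 ± 10.8 with MRC and light, and was not called, with 95% intervals of -0.47 to 0.07 and -0.44 to 0.10 on the log2 scale. PBS replicate 2 was its lowest library, and without it Dnajc10 was called lower, at log2 -0.33 with MRC and -0.29 with MRC and light (adjusted p = 0.00186 and 0.00455).

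Manf and Creld2, which encode luminal proteins that are secreted under ER stress, both rose in both comparisons. Manf (chr9:106715511-106769178) was at 99.4, 188 and 83.7 CPM in PBS, 312, 283 and 317 in MRC and 305, 316 and 326 in MRC+L. PBS replicate 2 was the highest PBS library, and no exposed library overlapped with PBS. Manf was 2.46-fold (log2 1.30 ± 0.25 SE, adjusted p = 0.00275) and 2.55-fold (log2 1.35 ± 0.25 SE, adjusted p = 0.00177) higher, and 3.31-fold with MRC without PBS replicate 2. Creld2 (chr15:88703849-88710886) was at 28.8, 44.9 and 24.5 CPM in PBS, 69.8, 66.6 and 61.2 in MRC and 69.9, 69.6 and 84.2 in MRC+L, again with PBS replicate 2 highest in its group and no overlap with PBS. It was 2.01-fold (log2 1.01 ± 0.20 SE, adjusted p = 0.00312) and 2.28-fold (log2 1.19 ± 0.20 SE, adjusted p = 0.000994) higher. Other genes share 9.25% of the exon bases of Manf.

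**Figure D4:**
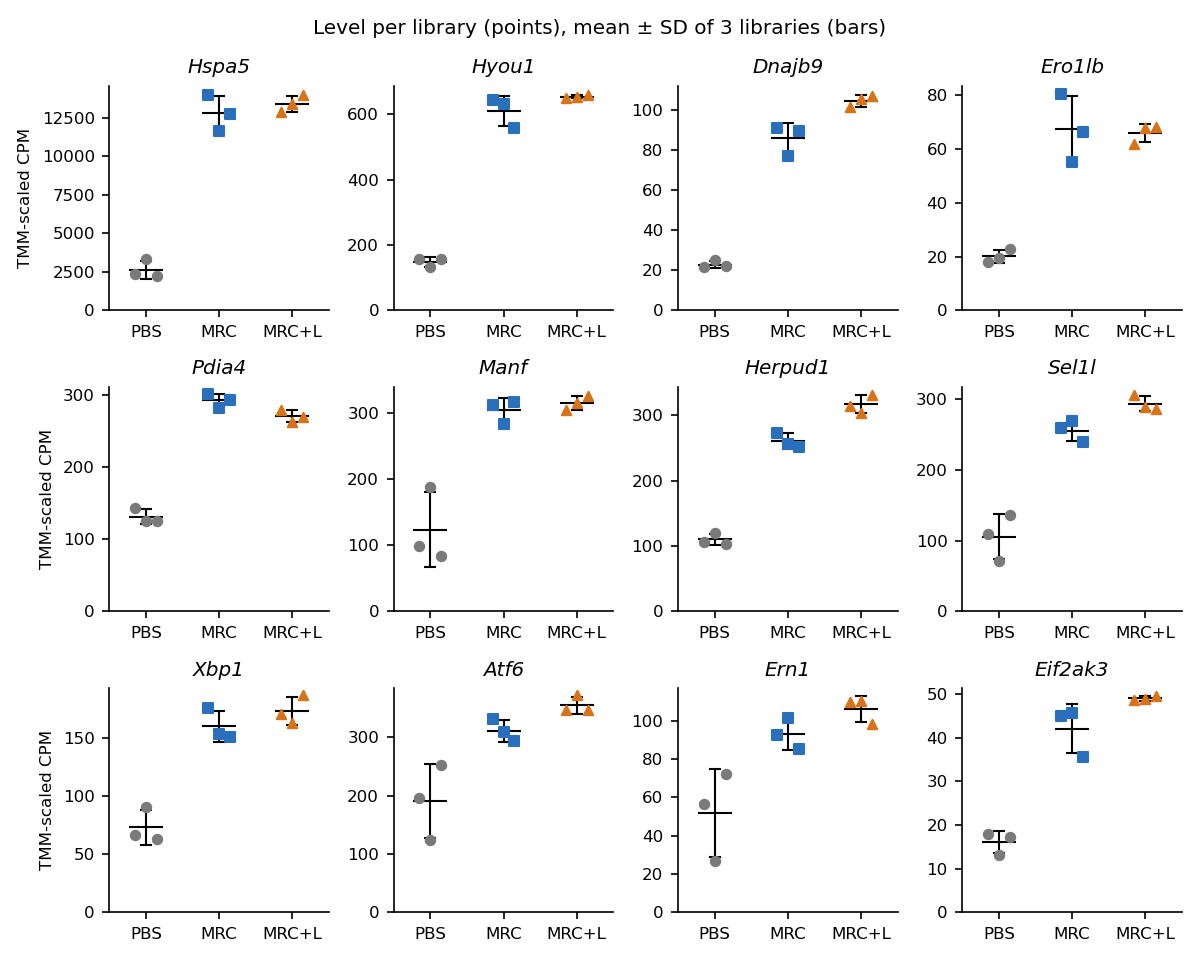
TMM-scaled CPM of 12 members in each library (points) with the mean and SD of the 3 libraries of a group (bars), on axes that start at 0 and differ between genes. No exposed library overlaps with PBS in any of the 12, and the PBS points of Manf, Atf6 and Ern1 are the most widely spread.

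In ERAD, 8 of the 9 tested genes rose in both comparisons, and 5 of them were at least 2-fold higher in each. Over all genes, 17.8% and 21.8% were called higher, and 5.91% and 8.28% were called at least 2-fold higher. Herpud1 encodes a membrane protein that joins the ERAD ligase complex (chr8:95113066-95122005). Its level was 106, 120.3 and 103 CPM in PBS, 274, 257 and 251 in MRC and 315, 304 and 332 in MRC+L. The groups did not overlap, and MRC+L was above MRC. It rose by 2.36-fold (log2 1.24 ± 0.10 SE, adjusted p = 1.71e-05) and by 2.88-fold (log2 1.52 ± 0.10 SE, adjusted p = 3.69e-06).

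Derl1 encodes derlin-1, part of the channel through which proteins leave the ER (chr15:57732898-57755844). It was at 209, 244 and 202 CPM in PBS, 462, 457 and 458 in MRC and 499.98, 516 and 508 in MRC+L, with no overlap between groups. The change was 2.105-fold (log2 1.07 ± 0.10 SE, adjusted p = 4.53e-05) and 2.33-fold (log2 1.22 ± 0.10 SE, adjusted p = 1.51e-05). Syvn1 encodes HRD1, the ubiquitin ligase of ERAD (chr19:6096606-6103742), and was at 63.4, 64.7 and 55.4 CPM in PBS, 124, 130.4 and 116 in MRC and 147, 147 and 137 in MRC+L. The groups lay apart in the order PBS, MRC, MRC+L. It rose by 2.02-fold (log2 1.01 ± 0.10 SE, adjusted p = 6.08e-05) and by 2.35-fold (log2 1.23 ± 0.10 SE, adjusted p = 1.34e-05).

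Sel1l, the adaptor that stabilises HRD1, rose from 106 ± 32.5 CPM to 256 ± 15.1 and 294 ± 10.5, by 2.41-fold and 2.77-fold (adjusted p = 0.000699 and 0.00023). Edem3, one of the mannosidase-like proteins that mark glycoproteins for ERAD, rose from 38.1 ± 12.2 to 81.7 ± 2.705 and 97.8 ± 4.56 CPM, by 2.15-fold and 2.57-fold (0.00182 and 0.000425). PBS replicate 2 was the lowest library of both long genes, at 71.6 and 25.0 CPM. Without it the MRC changes were 1.05 for Sel1l and 0.87 for Edem3 on the log2 scale, against 1.27 and 1.10 with it. Derl2, another derlin, was 1.39-fold and 1.36-fold higher (0.00515 and 0.00637). With an offset for gene length its log2 difference with MRC and light was 0.24, no longer called (adjusted p = 0.095).

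Edem1 and Edem2, the other mannosidase-like proteins, were each less than 2-fold higher. Edem1 was 1.25-fold higher with MRC (adjusted p = 0.0432) and 1.35-fold with MRC and light (0.00988). Its MRC call was lost when any MRC or MRC+L library or PBS replicate 1 was left out, with adjusted p from 0.0665 to 0.140. Edem2 was 1.45-fold (0.0205) and 1.34-fold higher (0.0436), and its MRC+L and PBS libraries overlapped. Its MRC call was lost without MRC replicate 2 or 3 or PBS replicate 1 (0.0665 to 0.0838), and its MRC+L call without any 1 library other than PBS replicate 2 (0.0644 to 0.153). Derl3, a derlin of secretory tissues, had 0 to 13 counts per library, 0.353 to 0.809 CPM in PBS and 0 to 0.473 CPM in the exposed libraries, and was not tested. Its promoter window holds ERSE.

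Os9, a lectin that delivers trimmed glycoproteins to HRD1, was the member called lower (chr10:126931519-126957000). It was at 73.4, 90.1 and 73.01 CPM in PBS, 68.8, 66.1 and 68.1 in MRC and 65.9, 63.5 and 61.00 in MRC+L. All exposed libraries lay below all PBS libraries. The log2 difference was -0.22 ± 0.11, adjusted p = 0.128 with MRC, not called, and -0.31 ± 0.11, adjusted p = 0.0349 with MRC and light, 1.24-fold lower. The second call was lost when any MRC or MRC+L library was left out (adjusted p = 0.0556 to 0.128). With an offset for gene length the difference was -0.18 (0.0765).

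Of the 5 sensors and transcription factors, 4 rose in both comparisons and Atf6b was not called in either. The shares of all genes called higher were 17.8% and 21.8%. Xbp1 encodes the transcription factor whose mRNA IRE1 splices (chr11:5470659-5475893). Its level was 66.1, 90.2 and 62.99 CPM in PBS, 175, 153 and 151 in MRC and 170.2, 163 and 186 in MRC+L. Exposed libraries lay above PBS and the MRC and MRC+L libraries overlapped. It rose by 2.19-fold (log2 1.13 ± 0.15 SE, adjusted p = 0.000264) and by 2.37-fold (log2 1.24 ± 0.15 SE, adjusted p = 0.000111). Counts per gene do not separate spliced from unspliced Xbp1.

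Eif2ak3 encodes PERK, the sensor kinase that phosphorylates the initiation factor eIF2α (chr6:70821499-70882229). It was at 17.9, 13.2 and 17.2 CPM in PBS, 44.8, 45.7 and 35.6 in MRC and 48.6, 48.7 and 49.5 in MRC+L. The groups did not overlap, and MRC replicate 3 was the lowest exposed library. It rose by 2.61-fold (log2 1.38 ± 0.14 SE, adjusted p = 7.41e-05) and by 3.04-fold (log2 1.60 ± 0.15 SE, adjusted p = 2.28e-05), the largest changes among the sensors. Gm43292 on the other strand shares 8.05% of its exon bases.

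Ern1 encodes IRE1, the sensor kinase and nuclease (chr11:106285476-106378678). Its level was 56.8, 27.1 and 72.2 CPM in PBS, 92.3, 101 and 85.1 in MRC and 109.7, 110.2 and 98.4 in MRC+L. PBS replicate 2 was the lowest PBS library, and no exposed library reached down to PBS. It rose by 1.79-fold (log2 0.84 ± 0.27 SE, adjusted p = 0.0359) and by 2.04-fold (log2 1.03 ± 0.28 SE, adjusted p = 0.0122). The MRC call was lost when any MRC or MRC+L library or PBS replicate 1 was left out (adjusted p = 0.0514 to 0.103). Without PBS replicate 2 it was called at a log2 fold change of 0.52 (adjusted p = 0.000357).

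Atf6 encodes the sensor that is cut in the Golgi to release a transcription factor (chr1:170532243-170695340). It was at 196, 125 and 252 CPM in PBS, 331, 309 and 294 in MRC and 346, 372 and 346 in MRC+L, again with PBS replicate 2 lowest and no overlap with PBS. It rose by 1.63-fold (log2 0.71 ± 0.21 SE, adjusted p = 0.0221) and by 1.86-fold (log2 0.89 ± 0.21 SE, adjusted p = 0.00585). Its MRC call was lost without MRC replicate 1 or 2 or PBS replicate 1 (adjusted p = 0.0553 to 0.0761), and without PBS replicate 2 the log2 fold change was 0.47 (0.000457). Atf6b, its paralog (chr17:34866120-34874048), was at 118, 116 and 105 CPM in PBS, 124, 133 and 117 in MRC and 115, 115 and 113 in MRC+L. Its exposed libraries overlapped with PBS, and the 95% intervals of the log2 difference were -0.07 to 0.36 and -0.19 to 0.24.

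The added light was compared on cells that all had MRC. In the fit of all 9 libraries, edgeR called 0 members higher and 0 lower in MRC+L than in MRC, as it called 0% of all genes. DESeq2 also called 0 members, and limma voom with sample weights called 3 higher, Ero1l, Herpud1 and Dnajb9. The share of all genes that limma voom called is not given here, so its 3 calls cannot be set against it. At an unadjusted p under 0.05 there were 3 members, Ero1l, Herpud1 and Dnajb9, against 4.26% of all genes. The median log2 difference was 0.08 over the members and -0.01 over all genes. The 3 MRC+L libraries lay above the 3 MRC libraries for 15 members and below them for 4, against 11.8% and 12.6% of all genes, and 17 overlapped.

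With only the 6 MRC and MRC+L libraries, which leaves the PBS spread out of the estimate, edgeR called 5 members higher and 0 lower, against 3.13% and 1.91% of all genes. Ero1l was higher by 0.57 ± 0.095 (log2, SE; adjusted p = 0.00138). Herpud1 was higher by 0.29 ± 0.062 (0.0101) and Dnajb9 by 0.29 ± 0.071 (0.0218). Edem3 was higher by 0.26 ± 0.067 (0.0262) and Dnajc3 by 0.21 ± 0.060 (0.0422). These 5, an oxidase, 2 ERAD genes and 2 co-chaperones, all had MRC+L libraries above every MRC library, against 11.8% of all genes. The same 6 libraries gave the calls, so this is not separate evidence. With all 9 libraries the 95% interval for Ero1l was 0.18 to 0.94 (adjusted p = 0.988), and without PBS replicate 2 it was called at 0.57 (0.0129). Over 16 alternative settings the Ero1l difference ran from 0.39 to 0.68, and 3 of them called it.

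For Hspa5 the log2 difference with light was 0.07 ± 0.16 (SE), with a 95% interval of -0.29 to 0.43. The sensors Eif2ak3, Ern1 and Atf6 differed by 0.22 ± 0.14, 0.19 ± 0.27 and 0.19 ± 0.21, and Xbp1 by 0.11 ± 0.14, none of them called. Pdia4, Atf6b, Os9 and Ppib were the 4 members whose MRC+L libraries all lay below MRC, by -0.11 ± 0.097, -0.12 ± 0.095, -0.09 ± 0.11 and -0.21 ± 0.18. A difference that was not called is not shown to be absent, and the intervals give the sizes these libraries allow.

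**Figure D5:**
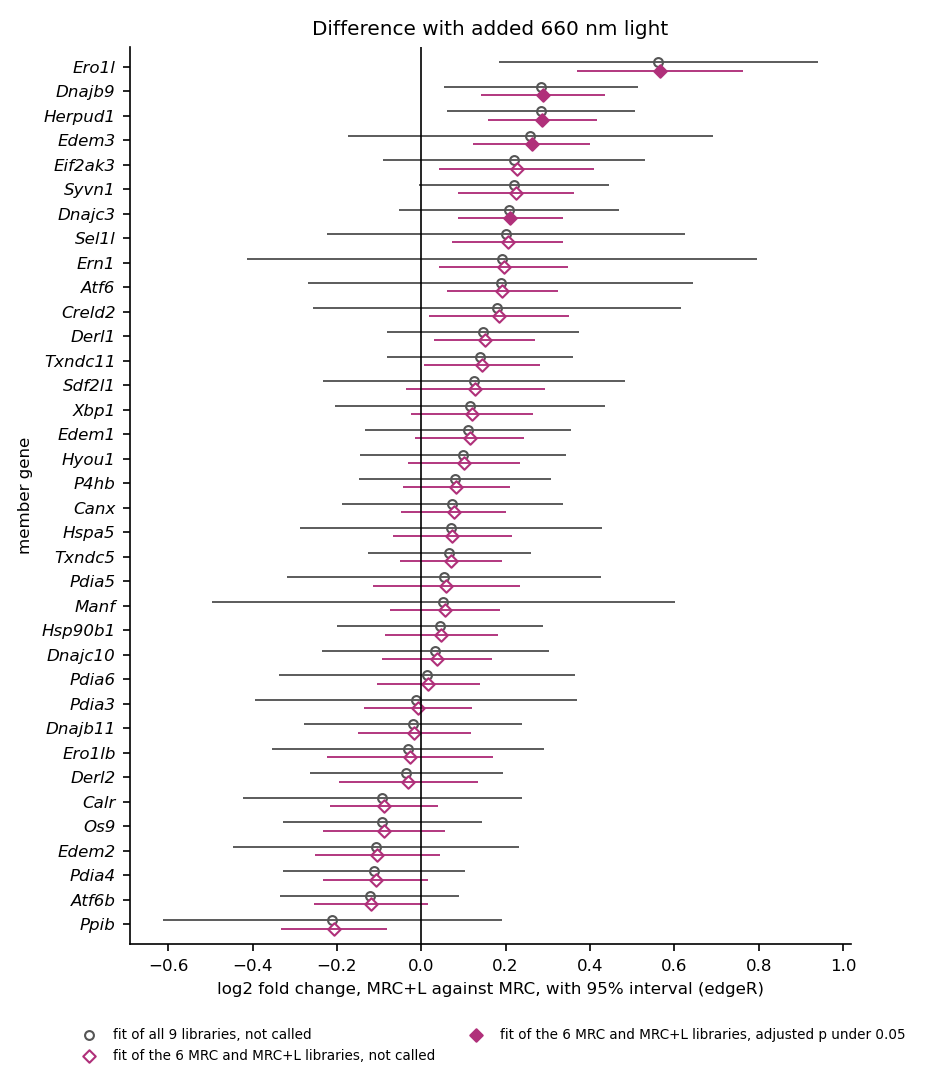
Log2 fold change of MRC+L against MRC with its 95% interval for the 36 tested members, from the fit of all 9 libraries (circles) and of the 6 MRC and MRC+L libraries (diamonds), ordered by the first. The estimates of both fits lie together and the second has narrower intervals; its 5 filled diamonds were called.

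The 11 tested members with ERSE or ERSE-II were all called higher with MRC, with log2 fold changes from 0.50 to 2.28 and a median of 0.81. Of 21 tested members with a promoter entry and neither element, 15 were called higher, with a median of 0.53. With MRC and light, 11 of 11 were higher with the elements (median 1.02), and 16 were higher and 1 lower without them (median 0.91). The ranges overlapped widely: Hsp90b1, with 2 ERSE matches, changed by 0.50 ± 0.11, and Dnajb9, with no match in its window, by 1.91 ± 0.11 (log2, SE). Outside the members, 37 genes held ERSE or ERSE-II and 16 of them were tested. With MRC, 6 of the 16 were higher and 3 were lower, against 17.8% and 19.8% of all genes. With MRC and light these counts were 7 and 4, against 21.8% and 24.5% of all genes. The medians of the 16 were 0.31 and 0.33. The 2 with the smallest adjusted p with MRC went opposite ways, Spats2l 7.37-fold lower and Alg12 2.17-fold higher.

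Other ER genes, in 6 lists with 133 genes of which 125 were tested, moved in both directions. With MRC 41 were higher and 16 lower (median log2 fold change 0.17), and with MRC and light 43 were higher and 22 lower (median 0.20). Of all genes, 17.8% were higher and 19.8% lower with MRC, and 21.8% and 24.5% with MRC and light. With light against MRC alone, 0 were called. Among 35 tested other folding enzymes, 7 rose and 6 fell with MRC, near the shares over all genes given above (17.8% and 19.8%). Gpx8 and Qsox1, an ER peroxidase and a sulfhydryl oxidase, fell by 2.49-fold and 1.63-fold (adjusted p = 0.000297 and 0.000363), while the procollagen chaperone Serpinh1 and the BiP-like Hspa13 were among the 7 that rose. With MRC and light 8 rose and 9 fell.

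The calnexin cycle and mannose trimming list had 12 tested genes, of which 1 rose and 3 fell in both comparisons. Over all genes 17.8% rose and 19.8% fell with MRC, and 21.8% and 24.5% with MRC and light. The number of the 12 that fell was thus near the share over all genes. Uggt1, the glucosyltransferase that returns misfolded glycoproteins to calnexin and calreticulin, was at 537, 431 and 549 CPM in PBS, 249, 268 and 254 in MRC and 253, 246 and 235 in MRC+L. All exposed libraries lay below all PBS libraries, the opposite of the chaperones Calr and Canx with which it works. It fell by 1.97-fold with MRC (log2 -0.98 ± 0.11, adjusted p = 0.000152) and by 2.06-fold with MRC and light (log2 -1.05 ± 0.12, adjusted p = 7.21e-05). The mannosidase gene Man1c1 fell from 9.29 ± 1.29 to 2.39 ± 0.628 and 2.51 ± 0.5 CPM (adjusted p = 0.000202 and 0.000179).

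Of 37 other tested ERAD genes, 14 rose and 2 fell with MRC, against 17.8% and 19.8% of all genes. With MRC and light 14 rose and 4 fell, against 21.8% and 24.5%. Ube2g2, a ubiquitin-conjugating enzyme that serves HRD1 and other ERAD ligases, rose by 2.48-fold and 2.61-fold (adjusted p = 2.3e-05 and 1.21e-05). Erlin1, which encodes a membrane protein of the ERAD of IP3 receptors, rose by 2.06-fold and 2.204-fold (2.61e-05 and 1.1e-05). Vcp, the ATPase that pulls proteins out of the membrane, and its partner Nploc4 were among the 14.

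Of 27 tested regulators and effectors of the unfolded protein response outside the members, 12 rose and 2 fell with MRC. With MRC and light 13 rose and 2 fell. The shares over all genes were 17.8% and 19.8% with MRC and 21.8% and 24.5% with MRC and light. Trib3, a pseudokinase induced by CHOP, was at 149, 176 and 127 CPM in PBS, 504, 481 and 498 in MRC and 475, 476 and 507 in MRC+L. It rose by 3.28-fold and 3.22-fold (adjusted p = 9.64e-06 and 7.12e-06), with no overlap between exposed and PBS libraries. Wfs1, a membrane protein of the ER, rose by 3.39-fold and 4.05-fold (9.64e-06 and 3.35e-06). Atf4 and Ddit3, the latter encoding CHOP, were among the 12.

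IRE1 also cuts some mRNAs at the ER membrane, and 5 genes known as its targets in other cells were followed. Of these 4 were tested, and Bloc1s1 was not. With MRC 0 rose and 3 fell, and with MRC and light 0 rose and 4 fell. The shares of all genes that fell were 19.8% and 24.5%. Col6a1, a collagen chain, was at 21.3, 15.8 and 23.1 CPM in PBS, 6.21, 8.27 and 8.53 in MRC and 7.29, 5.96 and 6.09 in MRC+L, and fell by 2.61-fold and 3.11-fold (adjusted p = 0.000346 and 0.000105). Scara3, a scavenger receptor, fell by 2.04-fold and 2.59-fold (0.000391 and 5.37e-05), and no exposed library of either gene overlapped with PBS. The other 2 were Pdgfrb, which fell in both and is also one of the fibroblast markers above, and Hgsnat, which fell with MRC and light. Whether these transcripts were cut cannot be seen from counts per gene.

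Receptors that carry proteins between the ER and the Golgi apparatus, 10 genes that were all tested, had 7 that rose and 0 that fell in both comparisons. Among all genes 17.8% rose and 19.8% fell with MRC, and 21.8% and 24.5% with MRC and light. The cargo receptor Surf4 was at 286, 283 and 251 CPM in PBS, 506, 491 and 496 in MRC and 527, 499 and 528 in MRC+L, 1.82-fold and 1.89-fold higher (adjusted p = 0.000115 and 5.61e-05). Tmed9, of the p24 family, was 1.71-fold and 1.703-fold higher (0.000621 and 0.000525). Kdelr3, one of the receptors that return proteins such as BiP from the Golgi apparatus to the ER, was among the 7.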

How the data were processed

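The 9 RNA-seq libraries of 4T1 cells were grouped as PBS, MRC and MRC+L by their titles in the labels. For each library the authors deposited raw counts of 55416 genes. Per the file headers, featureCounts 2.0.1 summed the deposited counts over the exons of each gene in paired-end mode, without a strand option, on the Ensembl release 104 annotation of GRCm39, so genes that overlap on opposite strands and near-identical copies are uncertain. The aligner is not given in the sources used here. The deposited tables also give the exon length of each gene, and the CPM per kilobase used here were computed from it. Symbols came from GENCODE M21 by gene ID (52083 IDs, 94.0%), with older names such as Ero1l and Ero1lb, now Ero1a and Ero1b.

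The fits used edgeR 4.0.16, DESeq2 1.42.0 and limma 3.58.1 under R 4.3.3. Other steps used pandas 2.3.3, matplotlib 3.10.9 and Python 3.11.15. The edgeR filter (minimum count 10, minimum total 15) kept 13439 genes. All 9 libraries and all genes kept entered a single quasi-likelihood fit with TMM factors and 1 mean per group, with Benjamini-Hochberg adjusted p under 0.05 as the threshold and a prior count of 0.125 for fold changes. It was tested on simulated data. Alternatives were DESeq2, its size factors in edgeR, no filter, limma voom with sample weights, a replicate block, an offset for gene length, the 6 libraries of 2 groups, and each library left out. The 37 members, the 6 lists of other ER genes and the marker lists were chosen with earlier results of these data known, so no test over a list is given.

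Values per library are printed for Hspa5, Xbp1, the 4 sensor genes, the 2 members of each role group with the smallest adjusted p in each comparison with PBS, and members called lower. Of each list of other ER genes, the 2 with the smallest adjusted p with MRC are named. Ero1l, Serpinh1, Hspa13, Vcp, Nploc4, Atf4, Ddit3, Kdelr3, Pdgfrb, Hgsnat and single marker genes were named after their values were seen. Promoter windows came from RefSeq on GRCm38.p6 and were matched by symbol, not by position.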

Additional observations from a re-analysis of the deposited data

How the results depend on the processing

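With 1 library left out in turn, 25 to 31 members were higher and 0 to 1 lower with MRC against PBS, at a median log2 fold change of 0.80 to 0.91. With MRC and light against PBS, 30 to 32 were higher and 0 to 2 lower, at a median of 0.86 to 1.07, and for MRC+L against MRC 0 to 1 were higher and 0 lower, at a median of 0.064 to 0.12. DESeq2, its size factors in edgeR, no filter, the length offset and the block gave 28 to 31 members higher than PBS in both comparisons, and the 6-library fits gave 25 and 30. With MRC the 6-library fit lost Pdia6, Edem2, Atf6, Ern1 and Edem1 (edgeR, adjusted p = 0.0520, 0.0585, 0.0605, 0.0838 and 0.105). The block lost the MRC calls of Ern1 (0.0509) and Edem1 (0.0742), and no filter that of Edem1 (0.0925). Limma voom with sample weights called 32 members higher than PBS in both comparisons. It called 1 member lower with MRC (Dnajc10) and 3 lower with MRC and light (Dnajc10, Os9 and Ppib). In MRC+L against MRC it called 3 higher, and the 6-library fit called 5 higher there. Shares of all genes called by limma voom are not given here. Os9 was lost with no filter, the length offset, the block and the 6-library fit, which left 0 members lower with MRC and light. The median with MRC and light was 0.91 under limma voom and 0.88 with the length offset, against 1.02.

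Whether replicate numbers pair the samples is not settled by these libraries. Correlations of deviations between same-numbered libraries ran from -0.185 to 0.038 over 9 pairs, and 1 of 9 libraries matched its own number best. With 3 libraries per group and PBS replicate 2 apart from the others, these correlations cannot exclude pairing. With the replicate block 28 members were higher with MRC, 30 with MRC and light and 0 in MRC+L against MRC.

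Signs changed for uncalled differences near 0, in log2 units. Under limma voom Atf6b stood at -0.033 with MRC and light against PBS, and between MRC+L and MRC Pdia6 stood at -0.0087 with no filter, Pdia3 at 0.018 and Dnajb11 at 0.0084 with the length offset. With 1 library left out in turn, Pdia3 ran from -0.10 to 0.29 with MRC and from -0.12 to 0.28 with MRC and light, called without PBS replicate 2 in both, Ppib from -0.34 to 0.097 with MRC and Atf6b from -0.031 to 0.052 with MRC and light. Between MRC+L and MRC the ranges were -0.0016 to 0.096 for Hsp90b1, -0.018 to 0.090 for Pdia5, -0.015 to 0.065 for Dnajc10, -0.090 to 0.0062 for Derl2, -0.15 to 0.11 for Ero1lb and -0.054 to 0.018 for Pdia3.

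Derl3 was the member near the depth limit. What made PBS replicate 2 differ from the other libraries was not tested.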
